A study of Mus musculus with 78 samples.

Results

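Livers of 11-week-old female Npc1-/- mice (n = 4) were compared with those of 11-week-old female Npc1+/+ mice (n = 4), which made up 8 of the 78 arrays of the series. The arrays were chosen by the age and genotype in their titles, and the genotype difference was tested in 12638 of the 19938 genes with a probe set of their own. All 8 mice came from the BALB/cNctr-Npc1m1N/J line on a BALB/c background, were born to 2 heterozygous (Npc1+/-) parents and were fed normal chow. The Npc1-/- mice carried the mutation in every cell of the body, and the labels class mice of 5 to 11 weeks of age as post-symptomatic. Each array held the total RNA of 1 frozen whole liver. The other 40 arrays of the age series, from mice of 1, 3, 5, 7 and 9 weeks of the same line (4 per age and genotype), served for comparison.

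NPC1 is a membrane protein of late endosomes and lysosomes that exports cholesterol freed from lipoproteins by lysosomal lipases. Without it cholesterol and sphingolipids pile up in the lysosome, while the rest of the cell senses a shortage of sterol and the SREBP-2 pathway can stay switched on. Loss of the protein in people causes Niemann-Pick disease type C. In the liver of affected animals both hepatocytes and macrophages store lipid, and lipid-filled macrophages (foam cells) collect between the hepatocytes.

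Values are given on the log2 scale of the deposited table, on which a difference of 1 is a factor of 2. The value after ± is the standard error of the fitted difference unless SD is named, and a difference is Npc1-/- minus Npc1+/+. A gene counts as higher or lower where limma's adjusted p was under 0.05. The values have no detection calls, so a change from or to a level below 5.54, the median of all values, is a lower bound. The 4 mice per group limit the precision. Arrays of the same genotype correlated at r = 0.976 to 0.993 (Npc1-/-) and 0.979 to 0.991 (Npc1+/+) across genes, and arrays of different genotype at 0.906 to 0.938. Mouse 4 of each genotype stood apart in some genes, as described at the end, and results that rest on these mice are also given without them. The hepatocyte marker Alb ran from 13.40 to 13.67 in Npc1-/- and from 13.40 to 13.77 in Npc1+/+ livers, and Apoa1 from 13.09 to 13.35 and from 13.15 to 13.44. Hepatocyte markers did not all stay level: Ahsg did not pass (-0.045), while Fga was lower (-0.92). The values of the other planned hepatocyte markers, Ttr, Apob, Fgb, Serpina1a and Tf, are not given here.

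The mutated gene, Npc1, read 9.02, 8.65, 8.76 and 8.41 in Npc1-/- mice 1 to 4. In Npc1+/+ mice 1 to 4 it read 10.54, 10.39, 9.99 and 10.15. The highest Npc1-/- value lay below the lowest Npc1+/+ value, with a difference of -1.56 ± 0.16 (limma adjusted p = 3.36e-11).

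The livers of the 2 genotypes differed in a large part of the genome at 11 weeks. Of 12638 genes, 4973 passed the threshold (39.3%), 2378 of them higher (18.8%) and 2595 lower (20.5%) in Npc1-/- liver. The groups did not overlap in 2130 genes with higher values (16.9%) and in 2200 with lower values (17.4%), and 3949 of the 4973 calls were of this kind. Gpnmb (7.12), a gene that was higher, had the largest difference, and the next 5 by size, from Mup3 (-6.24) to Ces3b (-5.50), were lower. Changes of at least 2-fold numbered 478 higher and 301 lower, and of at least 8-fold 38 and 19. The split of calls depended on the scale of the arrays: after centring each array on its median, the median difference over all genes moved from -0.02 to -0.11, and 1839 genes were higher and 3759 lower (32.9% higher, against 47.8% on the deposited scale).

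The 15 largest increases named mostly genes of macrophages and of lipid handling in them. Gpnmb, a transmembrane glycoprotein of lipid-loaded macrophages, read 12.31, 12.14, 12.43 and 12.48 in Npc1-/- mice and 5.51, 5.07, 5.02 and 5.28 in Npc1+/+ mice. Its difference of 7.12 ± 0.16 (adjusted p = 1.11e-32), at least 139-fold, was the largest of the 12638 genes. It was followed by Sult1e1 (5.09), Lilr4b (4.80), Mmp12 (4.78), Lpl (4.66) and Clec7a (4.64). Gpr137b and its pseudogene copy Gpr137b-ps rose by 4.40 and 4.61, and probe sets of such close copies may share signal. The list went on with the cytokine receptor gene Il7r (4.38), Itgax (4.20), Lgals3 (4.07), Cd68 (3.99), Tm4sf19 (3.98), Anxa1 (3.77) and Capg (3.70). Only calls whose groups do not overlap were ranked, so by this choice all 4 Npc1-/- mice lay above all 4 Npc1+/+ mice in these 15 genes.

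The 15 largest decreases named genes that hepatocytes use for secretion, transport and the chemistry of steroids, drugs and lipids. Mup3, a major urinary protein, read 6.55, 5.65, 4.99 and 4.53 in Npc1-/- mice and 11.51, 11.77, 11.85 and 11.55 in Npc1+/+ mice, and fell by 6.24 ± 0.33 (adjusted p = 3.84e-20). The sulfotransferase Sult3a1 fell by 5.98, the organic anion transporter Slco1a1 by 5.93, the carboxylesterases Ces3a and Ces3b by 5.53 and 5.50, and the sulfotransferase Sult2a8 by 5.09. Ugt3a1 (-4.48), Paqr9 (-4.32), the transporter Slc22a7 (-4.16), the pseudogene Serpina4-ps1 (-3.91) and Car3, a carbonic anhydrase of liver, fat and muscle (-3.75), came next. The thyroid hormone deiodinase Dio1 (-3.68), the peroxisomal oxidase Hao2 (-3.58), the fatty acid elongase Elovl3 (-3.39) and Cmah (-3.34) completed the list. Several of these genes belong to families of close copies (Mup, Ces, Sult), whose probe sets the files do not separate further.

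**Figure D1:**
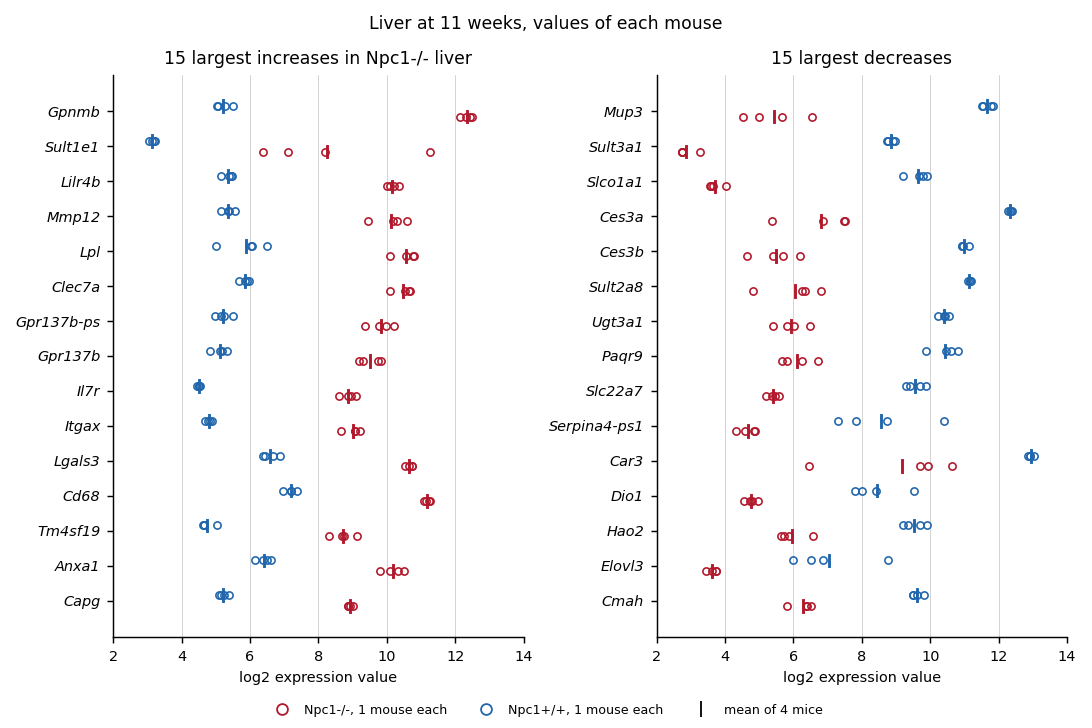
Log2 expression values (horizontal axis) of the 15 genes with the largest increase (left) and the 15 with the largest decrease (right) in Npc1-/- liver at 11 weeks. Each circle is 1 mouse and each bar the mean of 4 mice. The 30 genes were taken only from calls whose genotypes do not overlap. Npc1-/- mice 1 to 4 spread from 6.37 to 11.27 in Sult1e1.

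Genes of foam cells were among the most strongly raised. Of 16 tested genes of lipid-laden macrophages, 14 were higher and 1 lower, with a median difference of 3.05 beside -0.02 over all genes tested. Clec7a, a receptor for fungal glucans, read 10.67, 10.52, 10.64 and 10.10 in Npc1-/- mice and 5.96, 5.90, 5.67 and 5.84 in Npc1+/+ mice. Its difference was 4.64 ± 0.18 (adjusted p = 9.77e-25). Lpl, which frees fatty acids from lipoproteins, read 10.78, 10.56, 10.76 and 10.10 against 6.02, 6.05, 5.01 and 6.49. The receptor gene Trem2 rose by 2.07 and the fatty acid-binding Fabp5 by 2.42. Plin2, which coats lipid droplets in hepatocytes as well as in foam cells, moved against the list (-0.47 ± 0.18, adjusted p = 0.0309, with overlapping groups), and Apoe did not pass (0.03, adjusted p = 0.746).

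General macrophage genes rose with them: 23 of 24 were higher and none (0) lower, with a median of 2.29, and Lst1 did not pass. Cd68, a glycoprotein of macrophage lysosomes, read 11.08, 11.13, 11.25 and 11.24 in Npc1-/- mice and 7.19, 7.37, 6.97 and 7.21 in Npc1+/+ mice. The lysozyme gene Lyz2 (3.62), the protease gene Ctss (3.62) and the integrin chain Itgb2 (3.12) rose by more than 8-fold. Adgre1, which encodes the F4/80 antigen, moved far less, from 6.70 to 7.05 in Npc1+/+ mice to 7.14 to 7.61 in Npc1-/- mice (0.38 ± 0.13, adjusted p = 0.0143). In whole-liver RNA more cells of a type and more RNA per cell cannot be told apart.

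Genes typical of Kupffer cells, the resident macrophages of the liver, mostly moved the other way. Of 11 tested Kupffer cell genes 8 were lower and 1 higher, with a median of -0.82. Cd163, the scavenger receptor for haemoglobin, read 4.64, 4.87, 4.53 and 4.48 in Npc1-/- mice and 7.60, 7.57, 7.99 and 7.92 in Npc1+/+ mice, a difference of -3.14 ± 0.18 (adjusted p = 4.33e-19). Clec4f, a lectin found on Kupffer cells, read 7.20, 6.64, 6.47 and 6.97 against 8.98, 8.97, 8.93 and 8.93 (-2.13 ± 0.13). Cd5l (-1.32), Folr2 (-1.12) and Timd4 (-1.05) were lower too. Il18bp rose by 1.30, and Vsig4 (-0.32) and Slc40a1 (0.25) did not pass. Over the 12 genes of this list on the array, 1 of them below the filter, the highest Npc1-/- mouse had a mean of 6.56. The lowest Npc1+/+ mouse had 7.08. The mean of the general macrophage genes was 8.93 to 9.10 in Npc1-/- and 6.89 to 7.03 in Npc1+/+ mice. In the list of recruited monocytes 1 of 3 tested genes was higher and 1 lower, and 4 more were below the filter. Without the filter 3 of 7 were higher and 1 lower, beside 18.8% and 20.5% of all genes tested with it.

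Receptors and enzymes by which macrophages engulf and kill were raised as well. Of 8 Fc receptor and adaptor genes 7 were higher, among them Syk (2.20) and Fcgr4 (1.87), while the inhibitory receptor Fcgr2b, also expressed by sinusoidal endothelium, read 0.01 (adjusted p above the threshold). Of 11 genes of complement receptors and phagocytosis 8 were higher, led by Itgax and the C3a receptor C3ar1 (3.60). The endocytic receptors Mrc1 (-0.32) and Stab1 (-0.29) were lower, and whole-liver RNA does not tell in which cell type. The NADPH oxidase subunits Cyba (2.83), Cybb (2.62), Ncf4 (1.70) and Rac2 (0.72) rose. Of 15 tested genes of TNF, IL-1 and Toll receptor signalling 12 were higher, such as Tlr13 (3.20), Tnfaip2 (2.42), Tlr8 (2.05), Tlr7 (1.92) and the NF-kB inhibitor Tnfaip3 (1.88). The filter on low values (4 or more arrays above 5.54) can be passed through Npc1-/- arrays alone, so this count can lean upward. Tlr7, for example, was at most 4.65 in Npc1+/+ mice. Without the filter 12 of 19 genes were higher. Il1b itself fell by 0.57, from 5.64 to 5.72 in Npc1+/+ mice to 4.76 to 5.33 in Npc1-/- mice, close to the median of all values.

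Lysosomal genes were raised in most classes. Of 27 glycosidases and lipid hydrolases 20 were higher and 1 lower (median 0.59), and of 16 subunits of the proton pump that acidifies lysosomes 14 were higher and none (0) lower (median 0.58). Legumain (Lgmn), an asparaginyl protease, read 11.24, 11.17, 11.41 and 11.38 in Npc1-/- mice and 8.96, 9.23, 8.93 and 9.10 in Npc1+/+ mice (2.25 ± 0.10, adjusted p = 5.80e-23). Beta-glucuronidase (Gusb, 2.16), the hexosaminidase chain Hexa (1.99), the galactosylceramidase Galc (1.95), alpha-galactosidase (Gla, 1.87) and acid ceramidase (Asah1, 1.32) followed. Glycogen-splitting Gaa moved against the list by a small amount (-0.22 ± 0.08, adjusted p = 0.0304), and acid sphingomyelinase (Smpd1, 0.00) and beta-galactosidase (Glb1, 0.13) did not pass. Among proton pump subunits Atp6v0d2, a form typical of osteoclasts and macrophages, rose by 3.64, while the widely expressed Atp6v1b2 and Atp6v1a rose by 1.85 and 1.10.

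The cathepsins did not move as one. Of 12 tested 7 were higher: Ctss, Ctsk (3.60), Ctsd (1.85), Ctsb (1.29), Ctsz (1.22), Ctsl (1.21) and Ctsa (1.04). Ctsc, which activates granule proteases, read 8.72, 8.36, 8.57 and 8.70 in Npc1-/- mice and 10.01, 10.18, 9.94 and 10.23 in Npc1+/+ mice, and fell by 1.51 ± 0.13 (adjusted p = 1.86e-13). Ctse (-1.23) and Ctso (-0.34) were lower too, and the other 2 did not pass. Of 14 lysosomal membrane genes 7 were higher and 1 (Laptm4a, -0.22) lower, with the tetraspanin Cd63 (3.46) and Gpr137b at the top. Npc2, the soluble partner that hands cholesterol to NPC1, read 9.62, 9.57, 9.63 and 9.78 against 8.42, 8.44, 8.22 and 8.30 (1.30 ± 0.08, adjusted p = 3.43e-17). Of 16 genes of the TFEB family and autophagy 4 were higher and 2 lower (median 0.03), beside 18.8% and 20.5% of all genes tested. These were Mitf (0.86), Tfec (0.59), Sqstm1 (0.33), Atg7 (0.28), Atg5 (-0.33) and Ulk1 (-0.66), while Tfeb (0.18) and Tfe3 (0.11) did not pass.

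Transcription factors of the TFEB family bind the E-box letters CACGTG, and the promoters below show where these letters stand in the lysosomal genes of the largest increase that hold them. The windows run from 250 bases before to 50 bases after an annotated start of the gene in the RefSeq annotation of GRCm38.p6. Of a gene's windows only those that hold the letters are printed, so the start used need not be its main one. All 4 lie on the minus strand, with the CACGTG letters in capitals.
Lgmn, chr12:102439043-102439342: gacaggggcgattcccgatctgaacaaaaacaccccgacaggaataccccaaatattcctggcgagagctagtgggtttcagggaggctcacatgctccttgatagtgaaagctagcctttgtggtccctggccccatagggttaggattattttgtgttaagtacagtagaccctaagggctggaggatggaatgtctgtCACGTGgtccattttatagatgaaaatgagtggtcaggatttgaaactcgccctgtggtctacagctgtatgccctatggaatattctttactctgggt
Gla, chrX:134600956-134601255: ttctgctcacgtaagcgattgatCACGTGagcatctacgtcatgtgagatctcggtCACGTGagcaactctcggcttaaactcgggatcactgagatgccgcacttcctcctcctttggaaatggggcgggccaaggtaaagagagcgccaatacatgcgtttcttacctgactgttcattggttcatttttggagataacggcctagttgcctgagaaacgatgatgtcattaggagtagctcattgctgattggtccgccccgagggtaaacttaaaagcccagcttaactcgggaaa
Ctsd, chr7:142387778-142388077: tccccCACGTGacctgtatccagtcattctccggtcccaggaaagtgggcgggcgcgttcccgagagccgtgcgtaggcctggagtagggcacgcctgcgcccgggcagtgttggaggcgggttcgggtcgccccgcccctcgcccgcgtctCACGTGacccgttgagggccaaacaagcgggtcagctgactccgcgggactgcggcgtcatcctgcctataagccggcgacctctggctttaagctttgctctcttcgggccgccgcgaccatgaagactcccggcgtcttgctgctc
Ctsl, chr13:64370471-64370770: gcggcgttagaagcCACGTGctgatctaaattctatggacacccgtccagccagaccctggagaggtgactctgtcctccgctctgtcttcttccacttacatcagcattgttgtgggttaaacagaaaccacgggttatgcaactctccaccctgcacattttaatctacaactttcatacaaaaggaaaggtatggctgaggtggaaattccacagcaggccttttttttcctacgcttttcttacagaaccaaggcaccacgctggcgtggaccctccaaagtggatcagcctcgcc
Gla and Ctsd held the letters at 2 places each, Lgmn and Ctsl at 1. CACGTG reads the same on both strands and was searched as these 6 letters. Among genes with a window, a gene was counted where any of its windows held the letters. This was so in 15 of 44 lysosomal genes that were higher at 11 weeks (34.1%) and in 6 of 27 that were not (22.2%). Of all genes tested it was so in 1162 of 10070 (11.5%), and of all genes that were higher in 260 of 1890 (13.8%). Counted by window and not by gene, 2349 of all 32851 windows held the letters (7.2%). A match of letters is a description and not a measured binding site.

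**Figure D2:**
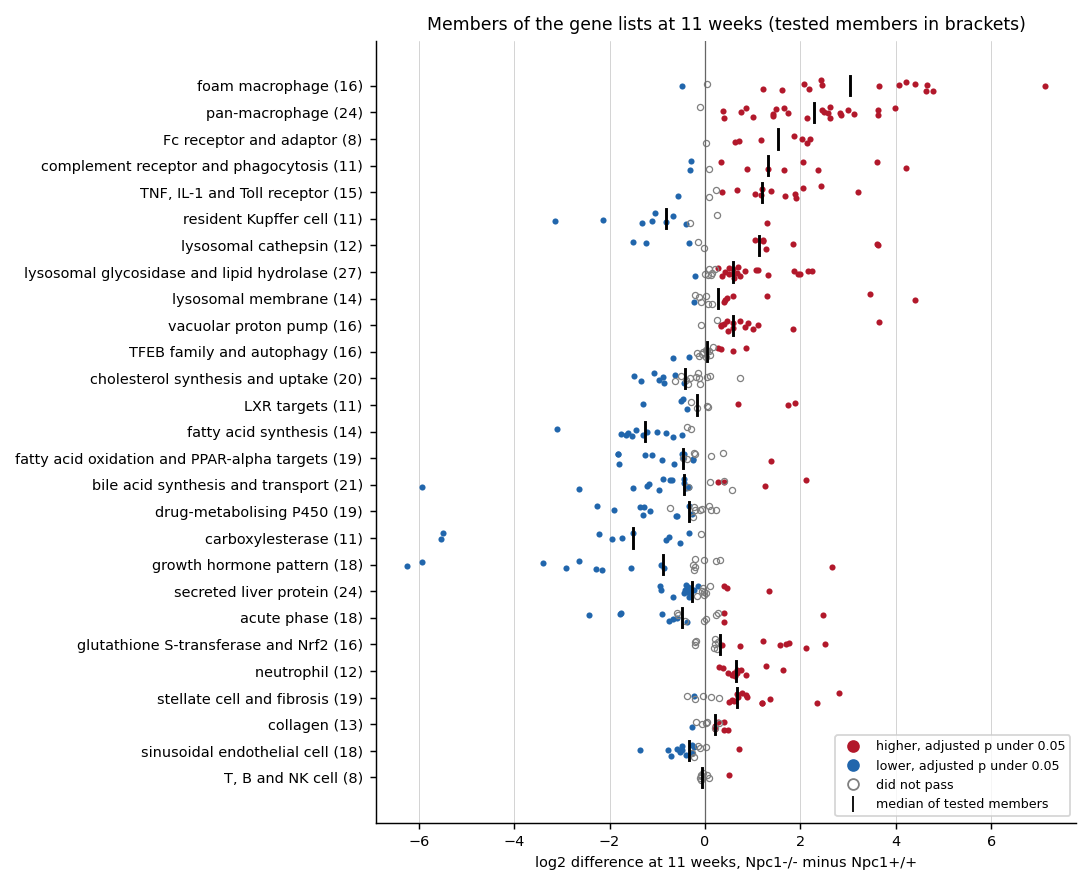
Log2 difference at 11 weeks, Npc1-/- minus Npc1+/+ (horizontal axis), of the tested members of 27 gene lists, with red points for members that were higher, blue points for members that were lower, open circles for members that did not pass and black bars for the median. The foam macrophage list has its median at 3.05, the vacuolar proton pump at 0.58, the Kupffer cell list at -0.82, fatty acid synthesis at -1.26 and carboxylesterases at -1.50.

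Of 20 tested genes of cholesterol synthesis and uptake 8 were lower and none (0) higher at 11 weeks, with a median of -0.43. The sterol desaturase gene Sc5d read 10.35, 9.40, 9.70 and 8.85 in Npc1-/- mice and 11.03, 11.23, 10.58 and 11.39 in Npc1+/+ mice, a difference of -1.48 ± 0.22 (adjusted p = 2.81e-07). Tm7sf2 (-1.34), Ebp (-1.07), Stard4 (-0.96), Idi1 (-0.88), Insig1 (-0.85), Nsdhl (-0.63) and Hsd17b7 (-0.45) made up the rest. Sqle, a rate-limiting step, read 9.08, 8.23, 8.11 and 8.20 against 7.67, 7.67, 6.81 and 8.55, and its difference of 0.73 ± 0.36 did not pass (adjusted p = 0.110). The list varied among mice: its mean ran from 8.35 in Npc1-/- mouse 4 to 9.24 in mouse 1, and from 8.69 to 9.48 in Npc1+/+ mice. Without mouse 4 of both genotypes 4 genes were lower and 1, Sqle, higher (1.09 ± 0.41, adjusted p = 0.0331), and the median was -0.20. Without Npc1+/+ mouse 4 alone 6 were lower and Sqle was higher (1.02 ± 0.38, adjusted p = 0.0300), with a median of -0.31.

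Genes for making fatty acids fell. Of 14 tested genes 12 were lower and none (0) higher, with a median of -1.26. Thrsp, an inducer of lipogenesis, read 8.43, 8.02, 6.83 and 9.54 in Npc1-/- mice and 11.54, 11.37, 12.15 and 10.18 in Npc1+/+ mice (-3.10 ± 0.53, adjusted p = 4.43e-06). The elongase gene Elovl5 (-1.75 ± 0.15), malic enzyme (Me1, -1.65), Elovl6 (-1.61), fatty acid synthase (Fasn, -1.54) and ATP citrate lyase (Acly, -1.44) were lower. The lipogenic transcription factor Srebf1 fell by 1.30 and the carbohydrate sensor Mlxipl by 1.22. Scd1 (-0.29) and Pnpla3 (-0.38) did not pass.

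Targets of the oxysterol receptor LXR split. Abcg1 (1.89), the phospholipid transfer protein gene Pltp (1.74) and Mylip (0.69) were higher, while Srebf1, Lpcat3 (-0.50), Abcg8 (-0.46) and the receptor gene Nr1h3 (-0.39) were lower. Abca1, the cholesterol exporter, read 9.90, 9.79, 9.79 and 10.21 in Npc1-/- mice and 9.93, 9.95, 9.69 and 9.88 in Npc1+/+ mice. Its difference did not pass (0.06 ± 0.10, adjusted p = 0.694). Without Npc1-/- mouse 4, 2 of these 4 genes were lower.

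Of 19 genes of fatty acid oxidation and PPAR-alpha targets 12 were lower and 1 higher (median -0.45). The acyl-CoA thioesterases Acot1 (-1.83) and Acot3 (-1.82), the pantetheinase Vnn1 (-1.79), Cpt2 (-1.12) and the receptor gene Ppara (-0.89) were lower, and Cyp4a14 moved the other way (1.39 ± 0.38, adjusted p = 0.00311). Cyp4a14 spread widely in Npc1+/+ mice, from 9.33 to 11.68. Around the lipid droplet, G0s2, which inhibits the lipase ATGL, fell from 9.06 to 10.45 in Npc1+/+ mice to 6.94 to 7.91 in Npc1-/- mice (-2.25 ± 0.35). The ATGL gene itself, Pnpla2, rose by 1.02, and Plin4 (1.76), Plin3 (1.29), Cidec (0.74) and Hsd17b13 (0.63) rose as well.

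Hepatocyte functions differed in how much they fell. Of 11 carboxylesterases 10 were lower and none (0) higher, with a median of -1.50. Ces3a read 7.51, 7.48, 6.86 and 5.36 in Npc1-/- mice and 12.26, 12.34, 12.38 and 12.36 in Npc1+/+ mice. Ces1f (-2.22), Ces1e (-1.95) and Ces2a (-1.73) fell less. Of 19 drug-metabolising P450 genes 10 were lower and none (0) higher (median -0.34), while after quantile normalization 8 were lower and 2 higher (median -0.18) and after median centring 13 were lower. Cyp2c54 (-2.26), Cyp2b13 (-1.91), Cyp2b9 (-1.36), Cyp2c50 (-1.30) and Cyp2f2 (-1.29) fell most. Cyp2e1, which handles alcohol, did not pass (-0.11).

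In bile acid synthesis and transport 13 of 21 genes were lower and 4 higher (median -0.43). The share of higher genes was near the 18.8% of all genes tested. Cyp7b1, of the alternative pathway of synthesis, read 6.85, 6.78, 6.97 and 6.38 in Npc1-/- mice and 9.34, 9.58, 9.39 and 9.23 in Npc1+/+ mice (-2.64 ± 0.18, adjusted p = 4.15e-16). The sterol hydroxylase Cyp8b1 (-1.50), the canalicular export pump Abcb11 (-1.22) and Nr0b2 (-1.18) were lower. Cyp7a1, the rate-limiting enzyme of the classic pathway, ran from 9.88 to 10.70 in Npc1-/- mice and from 8.23 to 10.47 in Npc1+/+ mice and did not pass (0.57 ± 0.52, adjusted p = 0.420). Abcc4, a pump on the blood-facing membrane, rose by 2.12 ± 0.16 and Slco1a4 by 1.25.

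Genes that depend on growth hormone in liver were mostly lower: 10 of 18 tested fell and 1 rose (median -0.89). The growth hormone receptor Ghr read 10.01, 9.70, 9.64 and 8.99 in Npc1-/- mice and 11.19, 11.14, 11.00 and 11.19 in Npc1+/+ mice (-1.54 ± 0.11, adjusted p = 2.16e-15). Hsd3b5 (-2.91), Igfals (-2.28) and Mup21 (-2.15) were lower, and Igf1 fell by 0.85. Igfbp1, a binding protein that insulin represses, rose by 2.67 ± 0.45. Some of these genes are known to be higher in male liver; all mice here were female.

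Of 15 genes of glucose handling 8 were higher and 5 lower. The higher ones included Hk3 (1.96), Pkm (1.45), Pfkp (1.31), Aldoa (1.28) and Hk2 (1.21), forms known mainly from cells other than hepatocytes. G6pc, Pklr (-1.19), Fbp1 (-0.80), Slc2a2 (-0.32) and Ldha (-0.30) were lower. G6pc, which releases glucose from the hepatocyte, read 7.74, 8.85, 7.14 and 11.44 in Npc1-/- mice and 11.40, 11.97, 11.90 and 12.00 in Npc1+/+ mice. Npc1-/- mouse 4 lay within the Npc1+/+ range, the other three far below it (-3.02 ± 0.49, adjusted p = 2.28e-06).

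Of 24 tested genes in the list of secreted liver proteins 14 were lower and 3 higher, with a median of -0.27 (-0.15 after quantile normalization). Other secreted proteins outside the list, such as Mup3 and Igfals, fell far more. Fga (-0.92) and Mug2 (-0.94) fell most, Apoa4 rose by 1.33, and Alb (-0.07), Apoa1 (-0.02) and Ahsg (-0.04) did not pass. In the acute phase list 8 of 18 genes were lower and 3 higher. In this list and that of secreted proteins the share of higher genes was no larger than the 18.8% of all genes tested. Lcn2, which neutrophils and macrophages also make, rose by 2.48 ± 0.31, and Hp (0.39) and Saa3 (0.41) rose. Saa4 (-2.43), Fgl1 (-1.79), the hepcidin gene Hamp2 (-1.76) and Itih4 (-0.91) were lower. Among 13 hepatocyte transcription factors 7 were lower and none (0) higher, from Cebpb (-0.93) and Cebpa (-0.83) to Hnf4a (-0.29). Of 12 genes of the urea cycle and amino acid breakdown Otc (-1.10) and Hpd (-0.38) were lower, a share no larger than the 20.5% of all genes tested, with a median of -0.05. After quantile normalization 2 were higher and 2 lower (median 0.05), and without Npc1-/- mouse 4, 4 were lower. Macrophage genes moved with the genotype in the same livers, as given above, and their part in the fall of hepatocyte genes was not tested.

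Genes of antioxidant defence rose in part. Of 16 tested genes of the Nrf2 and glutathione list 8 were higher and none (0) lower (median 0.31). The glutathione peroxidase Gpx3 read 7.31, 7.58, 7.87 and 9.02 in Npc1-/- mice and 5.43, 5.51, 5.15 and 5.59 in Npc1+/+ mice (2.52 ± 0.19, adjusted p = 3.29e-15). Srxn1 (1.75), the haem oxygenase Hmox1 (1.69), Nqo1 (1.58) and Gstp1 (1.23) were higher.

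Stress responses were raised in some branches and lowered in others. Atf3, a transcription factor induced by many stresses, read 8.85, 8.76, 8.50 and 8.70 in Npc1-/- mice and 5.93, 5.95, 5.45 and 5.85 in Npc1+/+ mice (2.91 ± 0.19, adjusted p = 7.60e-17). Klf6 (2.41), Myc (1.81) and Jun (1.32) rose, while Fos (0.29) and Egr1 (0.33) did not pass. Gadd45b (2.31) and Gadd45a (1.88) led the 5 of 10 genes of the p53 and Gadd45 list that were higher. Of 18 genes of endoplasmic reticulum stress 7 were lower and none (0) higher, such as Creld2 (-1.05) and Dnajb9 (-0.89), with a median of -0.35. Without mouse 4 of both genotypes 4 were lower and 1 higher, and without Npc1+/+ mouse 4 alone 5 were lower with a median of -0.17. On leaving out any other 1 of the 8 mice, 1 or 2 were higher and 5 to 7 lower. Of 10 heat shock genes 4 were lower and none (0) higher, led by Hsph1 (-1.91). The annexins, which bind phospholipid in membranes, were higher in 7 of 8 genes (median 1.26), with Anxa3 at 2.79 and Anxa2 at 1.82.

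Markers of other cell types changed unevenly. Of 19 stellate cell and fibrosis genes 13 were higher and 1 lower (median 0.67). Vim, an intermediate filament of mesenchymal cells and macrophages, read 11.14, 11.26, 11.44 and 11.80 in Npc1-/- mice and 8.69, 8.66, 8.47 and 8.60 in Npc1+/+ mice (2.81 ± 0.11). Timp2 rose by 2.35, Tgfb1 by 1.20 and Pdgfra by 1.18, but the marker of activated stellate cells Acta2 (-0.38, adjusted p = 0.417) did not pass. Of 13 collagen genes 6 were higher, all by less than 0.50, and Col18a1 was lower (-0.26). Col1a1 (0.30) and Col3a1 (0.01) did not pass. The collagen count fell to 3 higher after median centring and also without Npc1+/+ mouse 3.

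Genes of sinusoidal endothelium were lower in 12 of 18 (median -0.34), among them Dnase1l3 (-1.36), the orphan receptor Gpr182 (-0.77), Clec4g (-0.71) and Kdr (-0.59), and Lyve1 was higher (0.71). Of 13 neutrophil genes 12 passed the filter on low values, and these were higher, at low levels. A gene low in Npc1+/+ mice can pass this filter through Npc1-/- arrays alone, so this count can lean upward by construction. Over all 13 genes the mean ran from 5.06 to 5.70 in Npc1-/- and from 4.63 to 4.72 in Npc1+/+ mice. Ngp ran from 5.67 to 6.92 in Npc1-/- mice and from 4.48 to 4.66 in Npc1+/+ mice (1.63 ± 0.20), and S100a8 from 5.24 to 6.52 and from 4.34 to 4.56. Of 8 genes of T, B and NK cells Ccl5 was higher (0.51), a share no larger than the 18.8% of all genes tested. The T cell genes Cd3e (-0.09) and Cd8a (-0.08) lay near the median of all values without passing. In the MHC class II list 5 of 6 tested genes were higher, beside 18.8% of all genes tested. Without the filter on low values 5 of 9 were higher (median 0.66). H2-Aa read 8.38, 8.48, 8.38 and 7.50 against 6.81, 6.77, 6.99 and 6.95. The bile duct marker Krt19 (-0.02) did not pass, and Krt8 (1.09) and Cdh1 (1.50), which hepatocytes share, were higher.

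Signals between immune cells were mixed. Of 13 tested chemokine and receptor genes 5 were higher, namely Ccl3 (3.11), Cxcr4 (2.92), Ccl6 (2.10), Cxcl16 (1.37) and Ccl5. Ccl24 (-0.94), Cxcl9 (-0.84) and Cx3cr1 (-0.47) were lower, a share near the 20.5% of all genes tested. Without the filter on low values 7 of 23 genes of this list were higher and 4 lower. Of 15 interferon response genes 6 were higher and 2 lower, the latter a share no larger than the 20.5% of all genes tested. Usp18 (2.31) and Rsad2 (1.24) were at the top, and the median was 0.38. Without Npc1-/- mouse 3, 10 were higher (median 0.57), and without Npc1-/- mouse 4, 4 were higher (median 0.18), as also without mouse 4 of both genotypes (median 0.13). Of 9 tested erythroid genes 2 were higher and 2 lower (median 0.03), near the 18.8% and 20.5% of all genes tested. Among them were the transferrin receptor Tfrc (1.75), which other cells also express, and the erythroid haem enzyme Alas2 (-1.73).

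Genes of the respiratory chain depended on the scale. Of 18 tested genes 9 were lower and none (0) higher on the deposited scale (median -0.21), 1 was lower after quantile normalization and 14 after median centring. Quantile normalization also brought the median closer to 0 in fatty acid oxidation (-0.25, 9 lower), bile acid synthesis and transport (-0.23, 10 lower) and endoplasmic reticulum stress (-0.21, 5 lower). In the Nrf2 and glutathione list it gave 12 higher genes, and median centring 7 higher and 2 lower. In the list of commonly used reference genes 6 of 10 were higher, Actb among them (0.48), and Sdha was lower (-0.32).

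The difference between 11 and 9 weeks was then tested, with other mice at each age. At 9 weeks 4190 genes passed (33.2%). The same direction was called at both ages in 2998 genes, 60.3% of the 11-week and 71.6% of the 9-week calls, and opposite directions in 15. The genotype difference itself changed between the ages in 392 genes (3.10%), 110 upward (0.870%) and 282 downward (2.23%). In 338 of these the difference at 11 weeks was farther from 0 than at 9 weeks. The split depended on the scale, with 201 upward and 250 downward after quantile normalization. In the 282 genes with a downward change, Npc1-/- mice of 11 weeks lay below those of 9 weeks by a median of -0.55, and Npc1+/+ mice above by 0.13.

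Hepatocyte enzymes and complement genes led the downward changes. Ces3a had differed by -1.65 at 9 weeks and by -5.53 at 11 weeks, a change of -3.88 (adjusted p = 1.40e-06). Car3 went from -0.58 to -3.75 (adjusted p = 0.000228), Ugt3a1 from -2.10 to -4.48, Sult2a8 from -2.79 to -5.09, Paqr9 from -2.16 to -4.32 and Mup3 from -4.36 to -6.24. The terminal complement genes C8a and C9 moved from -0.49 to -2.52 and from -0.78 to -2.82. C8a read 8.47, 8.93, 8.42 and 7.62 in Npc1-/- mice of 11 weeks and 10.73, 11.09, 10.76 and 10.95 in Npc1+/+ mice. Inhbe, a hepatocyte activin chain, went from -0.30 to -2.14. Its change did not pass without Npc1-/- mouse 4 (-1.33) or without 9-week Npc1-/- mouse 1 (-1.68), and that of Mup3 did not pass without the latter mouse (-1.64) or without mouse 4 of both genotypes (-1.62).

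Upward changes were smaller. Sult1e1, which inactivates oestrogens, went from 1.96 to 5.09 (adjusted p = 0.0176), with Npc1-/- mice at 6.37, 7.10, 8.20 and 11.27 and Npc1+/+ mice at 3.21, 3.20, 3.15 and 3.03. Without mouse 4 of both genotypes its change was 2.08 and did not pass. The myeloid genes Ms4a4a (1.66 to 3.08, a change of 1.42 that was 0.90 without Npc1-/- mouse 4) and Cd14 (0.60 to 1.74), the bone-resorbing protease Ctsk (2.29 to 3.60) and the chemokine Ccl3 (1.83 to 3.11) followed. Defb1 (1.24 to 2.41), Bex1 (1.40 to 2.54), the lipid flippase Atp10d (0.22 to 1.36), Gpx3 (1.39 to 2.52) and the prostaglandin receptor Ptgfr (0.15 to 1.18) completed the 10.

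Genes of DNA replication were raised at 9 weeks and not at 11. Mcm6, a subunit of the replicative helicase, had differed by 2.02 at 9 weeks, and at 11 weeks it ran from 5.05 to 5.66 in Npc1-/- and from 5.04 to 5.71 in Npc1+/+ mice (0.01 ± 0.29, change -2.02, adjusted p = 0.00235). Of 19 cell cycle genes 9 were higher at 9 weeks and 1 at 11 weeks. The change passed in 4 of them, all downward, and Mcm5 went from 1.20 to -0.01 and Top2a from 0.73 to -0.49.

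**Figure D3:**
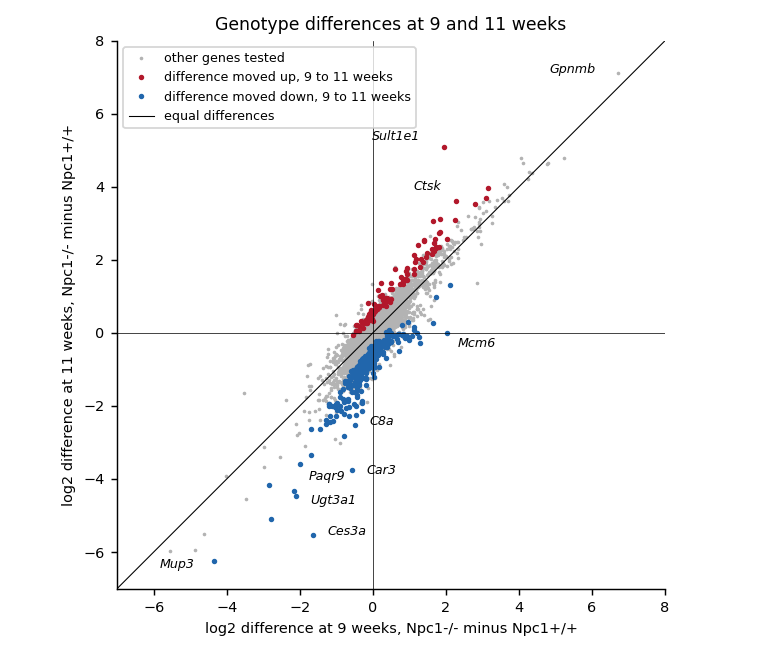
Log2 differences, Npc1-/- minus Npc1+/+, of 12638 genes at 9 weeks (horizontal axis) and 11 weeks (vertical axis), each point 1 gene. Red and blue points are the 110 genes whose difference moved up and the 282 whose difference moved down between the ages, and Ces3a, at -1.65 and -5.53, lies farthest below the line of equal differences.

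Set against the mean of the 5 younger ages, the genotype difference at 11 weeks was changed in 2332 genes (18.5%), 1093 upward and 1239 downward. Sult1e1 (4.50), Tm4sf19 (2.73), Ctsk (2.63), Lpl (2.57), Gpnmb (2.51), Emb (2.37), Il7r (2.35), Anxa1 (2.28), the myosin gene Myo5a (2.24) and Ms4a4a (2.21) moved upward most. Ces3a (-3.95), Paqr9 (-3.38), Mup3 (-3.27), Sult3a1 (-3.16), Car3 (-3.15), Sult2a8 (-3.11), Ugt3a1 (-3.00), Slco1a1 (-2.86), Ces3b (-2.44) and Slc22a7 (-2.42) moved downward most. The lists took different courses. All 20 tested cholesterol genes moved downward past the threshold: their median difference was 0.76 in the youngest mice, 0.92 at 5 weeks and 0.38 at 7, and then 0.19 and -0.43 at 9 and 11 weeks. The foam macrophage list had medians of 0.29, 0.94, 1.51, 2.59, 3.18 and 3.05 at the 6 ages in order, and 14 of its 16 genes moved upward. The carboxylesterase list stayed between -0.23 and -0.65 until 9 weeks and reached -1.50 at 11 weeks.

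**Figure D4:**
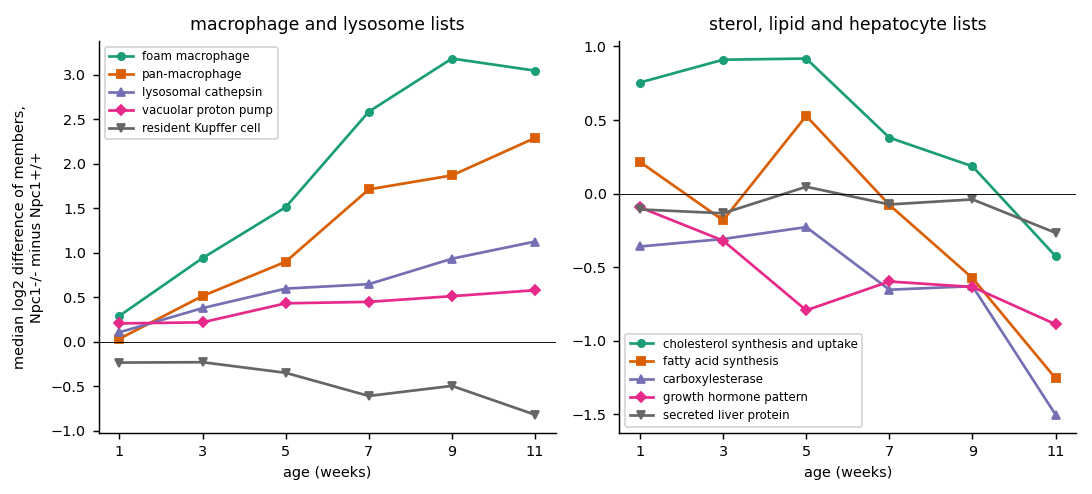
Median log2 difference, Npc1-/- minus Npc1+/+, of the tested members of 10 gene lists (vertical axis) by age in weeks (horizontal axis), each point 1 list at 1 age with 4 mice per genotype. The cholesterol list goes from 0.76 at 1 week to -0.43 at 11 weeks, and the foam macrophage list from 0.29 to 3.05.

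The 4 mice of a genotype were not alike in every gene. In Npc1-/- mouse 4, 112 genes lay more than 1 log2 unit from the mean of mice 1 to 3. The same count, each mouse against the mean of the others of its genotype, was 13 to 30 in Npc1-/- mice 1 to 3. In Npc1+/+ mice 1 to 4 it was 31, 17, 73 and 79. Npc1-/- mouse 4 had the lowest Car3 (6.46, against 9.69 to 10.65 in the others) and Ces1f (7.74 against 9.27 to 9.89), and the highest Sult1e1 and G6pc. Npc1+/+ mouse 4 differed in clock genes: Arntl read 7.78 against 5.66 to 5.80, and Dbp 6.90 against 9.32 to 9.81. It also carried a pancreas signal, with a mean of 6.08 over 12 pancreas genes against 4.87 to 4.97 in the other Npc1+/+ mice and 4.80 to 4.96 in Npc1-/- mice. Of the 11 pancreas genes tested Cela1 passed (-0.65), and of 14 clock genes Nfil3 (-1.63). Without mouse 4 of both genotypes 4394 genes passed at 11 weeks, 4174 of them also called with these mice and in the same direction. The 11-week calls of Abcg8, Adgre1, Atg7, Cela1, Col18a1, Creld2, Dnajb9, Gaa, Hnf4a, Hsd17b7, Il1b, Laptm4a, Ldha, Lpcat3, Mug2, Nsdhl, Plin2, Saa3, Slc2a2 and Top2a were lost when some 1 of the 8 mice was left out.

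**Figure D5:**
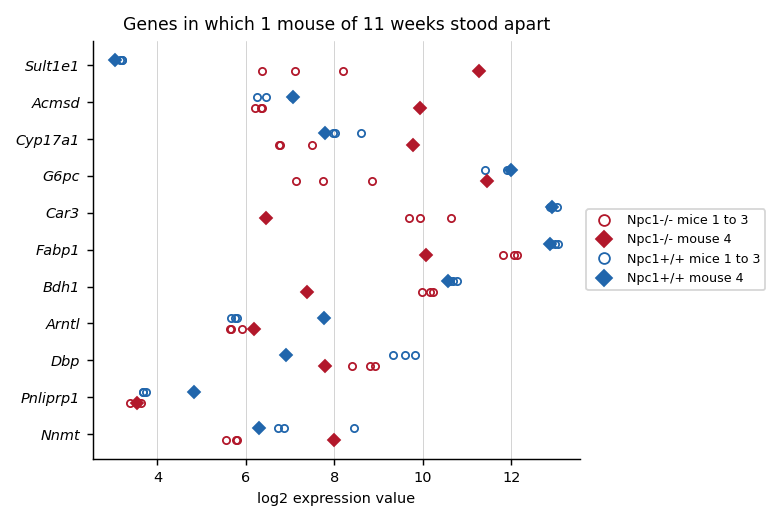
Log2 expression values (horizontal axis) of 11 genes, chosen after their values were seen, in which 1 mouse of 11 weeks lay apart from the others of its genotype. Diamonds mark mouse 4 and circles mice 1 to 3; Npc1-/- mouse 4 lies at 6.46 in Car3 and at 9.93 in Acmsd, and Npc1+/+ mouse 4 at 7.78 in Arntl.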

How the data were processed

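Total RNA of 78 mouse livers was hybridised to Affymetrix arrays, 1 array per liver. The authors deposited 1 table of log2 values for 35556 probe sets, and the submitters' processing notes name RMA and Partek 6.5. How arrays were scaled to each other is not given in the sources used here. Of the probe sets 21789 have 1 gene symbol in the platform annotation, 1621 several and 12146 none there, and only the first kind was used. For the 999 genes with several probe sets, that with the highest mean over all arrays was kept. Genes were tested where 4 or more arrays exceeded 5.54, the median over the whole table, which left 12638 of 19938. A gene can thus enter the test through the arrays of 1 group alone.

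Groups were taken from the titles. A linear model with 1 mean for each of 12 groups (48 arrays, 6 ages) was fitted in limma 3.58.1 (R 4.3.3, lmFit and eBayes), with contrasts for the genotype difference at 11 weeks, for its change from 9 weeks and for its change from the mean of the 5 younger ages. P-values were two-sided and Benjamini-Hochberg adjusted over all 12638 genes, with a threshold of 0.05. The fit was tested on simulated data, and no 2 arrays held identical values. Livers came from separate mice, as the labels name 1 liver per sample. Values and lists were summarised with Python 3.11.15 and pandas 2.3.3.

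The genes and the 51 gene lists were chosen with earlier results of these data known, so counts of list members are descriptions and no set was tested. Named are Npc1, the 15 highest and 15 lowest calls at 11 weeks whose groups do not overlap, the 10 highest and 10 lowest calls of each change with age, and of each list up to 6 members with the largest change and members that moved against it or did not pass. Clones and predicted genes were left out. Genes in which mouse 4 stood apart were named after their values were seen. Alternatives were other thresholds, filters, scalings between arrays, a mean over probe sets, other variance priors, array weights, other sets of arrays, the replicate number as a block and leaving out each mouse. Leaving out younger mice, and mouse 4 of both genotypes together, was chosen after seeing the data. Arrays give no read depth, and 4 mice per group limit the precision.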

Additional observations from a re-analysis of the deposited data

Results flagged for a closer look

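Among 624 groups of 4 mice (the named genes and gene lists in each genotype at 11 weeks), 39 (6.2%) held 1 mouse far from the other three, with a gap to the nearest of them divided by the range of the group above Dixon's 95% critical value for 4 values. Chance gives about 1 in 20 such groups. Npc1-/- mouse 4 was the distant mouse in 16 of them and Npc1+/+ mouse 4 in 6. Several genes, such as Acmsd, Bdh1, Fabp1 and Nnmt, were named because 1 mouse stood apart in them, so these counts follow in part from the choice of genes. The ratio of gap to range follows each name.

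Npc1-/- mouse 4 was the highest of its group in Acmsd (0.953), Adgre1 (0.903), Aldoa (0.832), Atp10d (0.859), Ccl24 (0.927), Creld2 (0.830), Glb1 (0.872), Mrc1 (0.854) and Nnmt (0.899). It was also highest in the mean of the sulfotransferase list (0.869) and of the heat shock list (0.951). It was the lowest in Actb (0.922), Bdh1 (0.915), Fabp1 (0.839), H2-Aa (0.895) and Me1 (0.877). In Acmsd, an enzyme of tryptophan breakdown, it read 9.93 against 6.20 to 6.37 in mice 1 to 3. In Bdh1, which makes a ketone body, it read 7.38 against 9.99 to 10.23, and in the fatty acid-binding Fabp1 10.07 against 11.81 to 12.14. Its H2-Aa read 7.50 against 8.38 to 8.48.

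Npc1+/+ mouse 4 was the highest in Arntl (0.936), Pnliprp1 (0.934), Scd1 (0.845) and the pancreas list (0.914), and the lowest in Dbp (0.829) and the circadian clock list (0.833). Pnliprp1, a lipase-related protein of the pancreas, read 4.82 there against 3.68 to 3.75.

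Other Npc1-/- mice stood apart in Acta2 (mouse 2, 0.938), Cxcl9 (mouse 2, 0.845), Alb (mouse 3, 0.895), Hsd3b5 (mouse 3, 0.969), Lst1 (mouse 3, 0.886), Nr1h3 (mouse 3, 0.843), Sqle (mouse 1, 0.873), Sqstm1 (mouse 1, 0.955) and Sult3a1 (mouse 1, 0.992). Acta2 read 8.09 in mouse 2 against 5.76 to 5.91 in the others. Other Npc1+/+ mice stood apart in Atp6v1a (mouse 3, 0.984), Col1a1 (mouse 1, 0.936), Gaa (mouse 2, 0.843), Saa4 (mouse 3, 0.883), Tlr7 (mouse 2, 0.853), Tm4sf19 (mouse 1, 0.961), the Kupffer cell list (mouse 2, 0.886) and the skeletal muscle list (mouse 2, 0.942).

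The genotype difference changed between 9 and 11 weeks (interaction contrast, limma adjusted p under 0.05) in 49 of the 261 named genes. The change, 11 weeks minus 9 weeks on the log2 scale, follows each name. It was upward in Sult1e1 (3.13), Ms4a4a (1.42), Ctsk (1.31), Ccl3 (1.28), Defb1 (1.17), Bex1 (1.14), Atp10d (1.14), Cd14 (1.14), Gpx3 (1.14), Ptgfr (1.03), Pnpla2 (0.82), Tm4sf19 (0.81), Hmox1 (0.77), Myo5a (0.60), Mylip (0.55), Gusb (0.54) and Timp2 (0.53).

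Downward changes in enzymes and transporters were those of Ces3a (-3.88), Car3 (-3.18), Ugt3a1 (-2.38), Sult2a8 (-2.29), Paqr9 (-2.17), Cmah (-1.64), Cyp2b13 (-1.61), Hao2 (-1.59), Ces1f (-1.44), Slc22a7 (-1.33), Elovl5 (-1.32), Fabp1 (-1.24), Pklr (-1.23), Cyp7b1 (-0.95), Ces1e (-0.94), Cyp2c50 (-0.89), Fbp1 (-0.59) and Otc (-0.57). Secreted proteins and hormone genes were C8a (-2.03), C9 (-2.03), Mup3 (-1.88), Inhbe (-1.83), Saa4 (-1.25), Igfals (-1.12), Ghr (-1.11) and Itih4 (-0.53). The others were Mcm6 (-2.02), G0s2 (-1.79), Top2a (-1.22), Mcm5 (-1.20), Cd5l (-0.85) and H2-Aa (-0.81).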

How the results depend on the processing

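At 11 weeks the count of 4973 genes stayed between 3780 (adjusted p under 0.01) and 5598 (arrays centred on their median) under the other settings, except that 779 genes remained past the threshold when a 2-fold change was also required. The fit of only the 8 arrays of 11 weeks called 4295. Leaving out 1 mouse gave 4351 to 4749. The change from 9 to 11 weeks, 392 genes, was less stable. It was 133 at an adjusted p under 0.01, 76 with a 2-fold change, 898 with array weights, 622 in a fit of all 78 arrays, 228 in a fit of the 16 arrays of both ages and 260 without mouse 4 of both genotypes. Leaving out 1 mouse gave 244 (without 9-week Npc1-/- mouse 2) to 605 (without 9-week Npc1+/+ mouse 2), with 604 without 11-week Npc1+/+ mouse 3. Against the younger ages, 2332 genes became 1459 at an adjusted p under 0.01 and 298 with a 2-fold change, and 1864 to 2405 on leaving out 1 mouse. The causes of these shifts were not tested, except that the stricter thresholds lower a count by construction. No detection calls accompany the values, so changes near the floor of the arrays are lower bounds.

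With the replicate number as a block, 4944 genes passed at 11 weeks, 409 changed from 9 to 11 weeks and 2337 against the younger ages, and among the named genes the 11-week calls of Col18a1, Hsd17b7 and Laptm4a were lost. Deviations of mice with the same number correlated at 0.145, -0.03, -0.174 and 0.057 for numbers 1 to 4. Those of mice with different numbers correlated at -0.17 to 0.134. These values cannot tell whether mice with the same number were paired in some way.

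Of 227 named genes called at 11 weeks, 20 lost the call without at least 1 of the 8 mice. The value nearest to 0 on leaving out 1 mouse, with the mice whose absence ended the call, was -0.34 for Abcg8 (Npc1-/- 4, Npc1+/+ 2), 0.27 for Adgre1 (Npc1-/- 4, Npc1+/+ 3), 0.17 for Atg7 (Npc1-/- 1, 2, 3, Npc1+/+ 3, 4), -0.52 for Cela1 (Npc1-/- 3, Npc1+/+ 4), -0.20 for Col18a1 (Npc1-/- 2, 3, 4, Npc1+/+ 2, 4), -0.70 for Creld2 (Npc1-/- 1, 2, 3, Npc1+/+ 3, 4) and -0.63 for Dnajb9 (Npc1+/+ 4). It was -0.14 for Gaa (Npc1-/- 3, 4, Npc1+/+ 2), -0.23 for Hnf4a (Npc1-/- 2, Npc1+/+ 3, 4), -0.32 for Hsd17b7 (Npc1-/- 3, 4, Npc1+/+ 1, 2, 4), -0.46 for Il1b (Npc1-/- 3, Npc1+/+ 1, 2, 3), -0.18 for Laptm4a (Npc1-/- 2, 3, 4, Npc1+/+ 1, 2, 4), -0.22 for Ldha (Npc1-/- 4, Npc1+/+ 4), -0.38 for Lpcat3 (Npc1-/- 4, Npc1+/+ 1) and -0.67 for Mug2 (Npc1-/- 4, Npc1+/+ 4). It was -0.50 for Nsdhl (Npc1-/- 2, 3, 4, Npc1+/+ 1, 2, 4), -0.32 for Plin2 (Npc1-/- 3, 4, Npc1+/+ 2, 4), 0.31 for Saa3 (Npc1-/- 2, 3, Npc1+/+ 2, 3), -0.20 for Slc2a2 (Npc1-/- 2, 3, Npc1+/+ 1, 2) and -0.42 for Top2a (Npc1-/- 1, 3, Npc1+/+ 2, 4). Calls that were kept but moved by over 1.5 times were Bdh1 (-0.53) and Fabp1 (-0.95) without Npc1-/- mouse 4, Cebpb (-0.60) without Npc1+/+ mouse 3 and Cidec (0.49) without Npc1-/- mouse 2. Of 49 named changes from 9 to 11 weeks, 16 lost the call without 1 of 16 mice: Bex1, Cd5l, Ces1f, Cyp2b13, Cyp7b1, G0s2, Gusb, H2-Aa, Inhbe, Mup3, Mylip, Myo5a, Otc, Pnpla2, Timp2 and Tm4sf19. The changes of Fabp1 (-0.75) and Ms4a4a (0.90) moved by over 1.5 times without 11-week Npc1-/- mouse 4 and kept their calls.

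Laptm4a (-0.22) turned to 0.031 after quantile normalization. The other reversals were of genes that did not pass. With array weights Abca1 read -0.037, Apoa1 0.044, Krt19 0.011, Mcm5 0.056 and Smpd1 -0.021. With median centring Abca1 read -0.030, Apoe -0.055, Col3a1 -0.075, Fcgr2b -0.074, Mcm6 -0.083 and Smpd1 -0.087, and after quantile normalization Apoe read -0.022 and Mcm6 -0.055. Without mouse 4 of both genotypes Abca1 read -0.032, Acmsd -0.274, Apoa1 0.046, Fcgr2b -0.067, Krt19 0.015, Mcm5 0.093, Mcm6 -0.081 and Smpd1 -0.039. On leaving out 1 mouse the ranges were -0.039 to 0.102 (Abca1), -0.394 to 0.851 (Acmsd), -0.129 to 0.010 (Alb), -0.064 to 0.042 (Apoa1), -0.593 to 0.111 (Arntl), -0.082 to 0.125 (Col3a1), -0.040 to 0.065 (Fcgr2b), -0.072 to 0.019 (Krt19), -0.091 to 0.059 (Mcm5), -0.101 to 0.125 (Mcm6) and -0.045 to 0.066 (Smpd1).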

Other observations

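In the 11-week mice, some genes that no list above covers set Npc1-/- mouse 4 apart, and these were chosen after their values were seen. Cyp17a1, a steroid hydroxylase, read 9.79 in Npc1-/- mouse 4 and 6.74 to 7.50 in mice 1 to 3. Nnmt, which methylates nicotinamide, read 8.00 in that mouse and 5.56 to 5.80 in mice 1 to 3, while Npc1+/+ mouse 3 read 8.46.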
